A study of Homo sapiens with 4 samples.

Results

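The genes described here are 39 members of the cadherin adhesion system: classical cadherins, cadherins with other membrane anchors or long extracellular parts, non-clustered protocadherins, FAT and Dachsous genes, and the catenins that bind cadherin tails. They were taken by name from the 64252 gene rows of a count table, and each name matched a single Ensembl identifier. The table comes from RNA sequencing of SK-N-BE(2), an established human neuroblastoma line known for its amplified MYCN. In the sh-IRF2BP2 group (2 libraries) the cells were transfected with a short hairpin RNA (shRNA) against IRF2BP2, a transcriptional co-regulator, and in the sh-Scb group (2 libraries) with a scramble shRNA. Both groups share the line and its amplified MYCN, and the labels do not say whether transfected cells were kept as a pool or as a clone, how long after transfection they were taken, or whether replicates were separate cultures. The comparison asks which of these adhesion transcripts differ when IRF2BP2 is lowered.

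Classical cadherins are single-pass membrane proteins whose extracellular repeats bind calcium and pair with cadherins on the next cell. Their cytoplasmic tails hold p120-family catenins near the membrane and beta-catenin or plakoglobin farther along, and alpha-catenin joins that complex to actin. Sympathetic neuroblasts arise from the neural crest, which is known for changing its cadherins as its cells leave the neural tube and migrate, and neural tissue is known for N-cadherin (CDH2) in place of the epithelial E-cadherin (CDH1). Protocadherins and the very large FAT and Dachsous cadherins have other tails and do not build the classical catenin complex.

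Total counts lay between 30847699 and 34684651 per library. Levels are given as TMM-scaled CPM, that is, counts relative to library size with edgeR's trimmed-mean correction. IRF2BP2 itself had 89.6 and 87.5 CPM in sh-IRF2BP2 libraries, against 243 and 238 CPM in sh-Scb libraries, so the targeted gene followed the labels. All 13 sympathetic neuroblastoma markers were detected and tested, of which 3 (MYCN, HAND1 and GATA2) were higher with sh-IRF2BP2, 9 were lower, TH among them, and 1 was not called; over all genes tested 20.6% were higher and 21.4% lower. Summed epithelial markers reached 5.38 and 5.87 CPM in sh-IRF2BP2 libraries and 10.3 and 8.30 CPM in sh-Scb libraries, with KRT5 and KRT14 at 0 in all libraries. Summed endothelial markers were at 3.69 and 2.90 CPM in sh-IRF2BP2 libraries, against 4.06 and 3.38 CPM in sh-Scb libraries, with PECAM1 at 0. The fibroblast and mesenchymal list summed to 454 and 449 CPM in sh-IRF2BP2 libraries and 565 and 549 CPM in sh-Scb libraries. Schwann and immune lists each stayed under 8 CPM in every library, with FOXD3, CD3E and LYZ at 0.

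Of the 39 members, 28 passed the filter on low counts (about 0.313 CPM in at least 2 libraries), and 13 of these passed an adjusted p of 0.05 in edgeR's quasi-likelihood test over all 19093 genes tested. The share called over all genes was 42.0%, so 13 of 28 is near the background. Higher with sh-IRF2BP2 were 7 members (CDH2, PCDH7, PCDH9, PCDH10, FAT1, FAT3 and FAT4), beside 20.6% of all genes tested. Lower were 6 (CDH11, CDH18, PCDH15, PCDH20, CTNNA1 and CTNNA2), beside 21.4% of all genes. Fewer members were called without sh-IRF2BP2 replicate 1, all of them among the 13, and the share over all genes in that fit is not given here. The median log2 fold change (sh-IRF2BP2 over sh-Scb) was 0.01 over the tested members and -0.01 over all genes tested. Called and at least 2-fold apart were 8 members, 5 higher and 3 lower, beside 9.70% of all genes; 3 of them (PCDH10, PCDH15 and PCDH20) passed the filter through the libraries of their higher group, as did CDH22, PCDH8 and PCDH19.

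**Figure D1:**
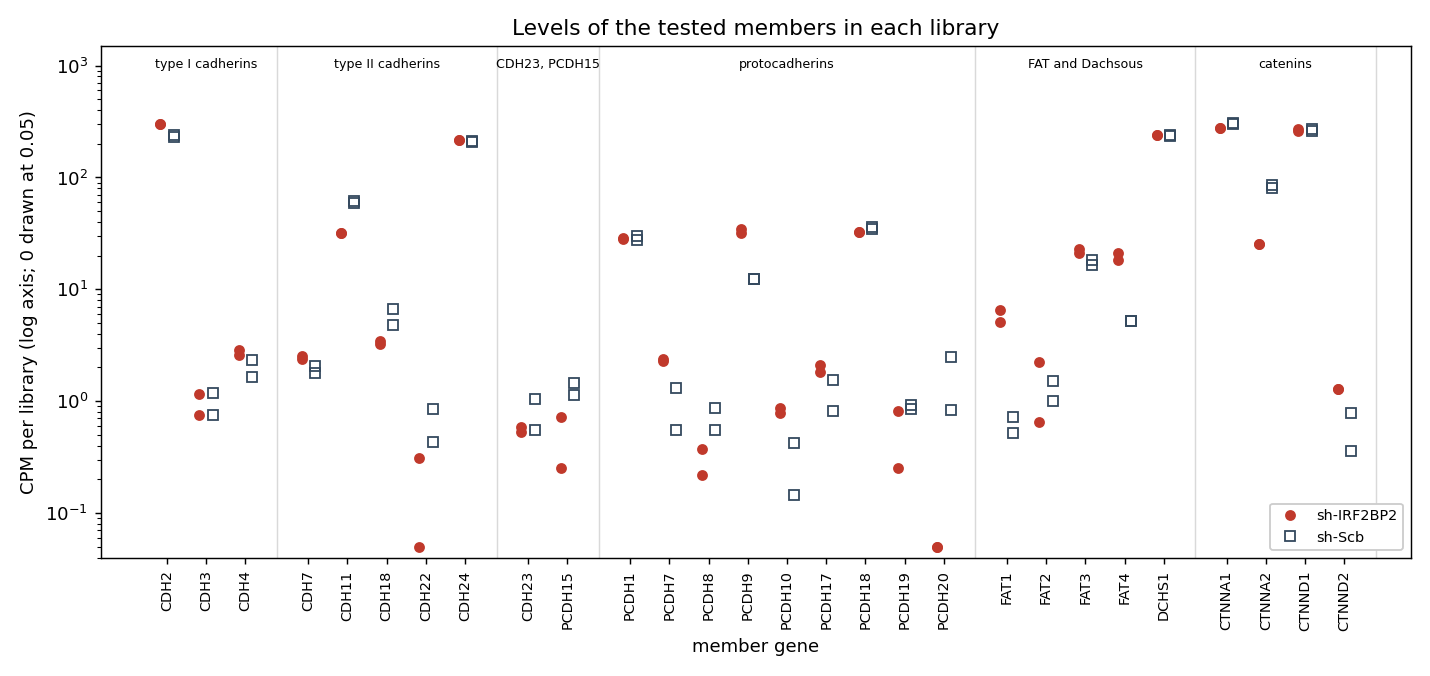
CPM of each tested member in each library on a log axis, with sh-IRF2BP2 libraries as filled circles and sh-Scb libraries as open squares; values of 0 are drawn at 0.05. CDH2, CDH24, DCHS1, CTNNA1 and CTNND1 lie above 200 CPM in all libraries, while FAT1, FAT4, PCDH9, CDH11 and CTNNA2 show the groups apart.

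RefSeq promoters (GRCh38.p14) were at hand for 24 members, with 43 annotated starts among them. None was at hand for CDH1, CDH3, CDH5, CDH6, CDH11, CDH13, CDH15, CDH22, CDH24, PCDH10, PCDH20, FAT3, FAT4, DCHS1 and CTNND1, which were not searched. The 250 bases before a start held a median of 11 CG dinucleotides over all 35116 promoters of the table. Windows of 2 members that were higher (FAT1 and PCDH7) and 2 that were lower (CTNNA1 and PCDH15) are printed because on each side 1 window was far above that median and 1 close to it. Capitals mark CG dinucleotides, and each window runs 5′ to 3′ on the strand of its gene.
FAT1 (chr4:186726697-186726946, minus strand): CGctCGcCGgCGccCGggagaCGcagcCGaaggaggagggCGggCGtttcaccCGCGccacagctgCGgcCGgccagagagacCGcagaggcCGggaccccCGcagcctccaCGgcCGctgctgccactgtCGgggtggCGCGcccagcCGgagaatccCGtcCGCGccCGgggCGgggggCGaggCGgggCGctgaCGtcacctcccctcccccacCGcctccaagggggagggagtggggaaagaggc
PCDH7 (chr4:30720119-30720368, plus strand): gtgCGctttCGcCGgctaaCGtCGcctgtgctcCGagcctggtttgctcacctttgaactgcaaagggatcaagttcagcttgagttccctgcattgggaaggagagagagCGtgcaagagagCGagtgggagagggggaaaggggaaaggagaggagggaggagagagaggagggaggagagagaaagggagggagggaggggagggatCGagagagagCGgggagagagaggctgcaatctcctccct
CTNNA1 (chr5:138753175-138753424, plus strand): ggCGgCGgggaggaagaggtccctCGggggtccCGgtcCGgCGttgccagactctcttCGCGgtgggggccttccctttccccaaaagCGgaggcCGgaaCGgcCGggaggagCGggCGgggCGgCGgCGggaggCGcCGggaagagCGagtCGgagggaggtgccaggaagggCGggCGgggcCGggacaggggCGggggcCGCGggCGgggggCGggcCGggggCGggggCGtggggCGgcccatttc
PCDH15 (chr10:55627943-55628192, minus strand): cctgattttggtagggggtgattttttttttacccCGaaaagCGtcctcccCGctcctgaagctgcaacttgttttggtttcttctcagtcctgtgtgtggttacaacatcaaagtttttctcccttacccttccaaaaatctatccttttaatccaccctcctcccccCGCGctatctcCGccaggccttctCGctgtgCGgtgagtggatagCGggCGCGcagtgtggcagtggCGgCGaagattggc

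FAT1 held 32 CG dinucleotides in this window, PCDH7 10, CTNNA1 33 and PCDH15 13. CTNNA1 has another start with 3 CG dinucleotides in its window, CTNNA2 has starts with 2 and with 39, and counts per gene do not tell which start was used. The letters CAGGTG (or CACCTG on the other strand), the E2-box that SNAI and ZEB factors are known to bind, were in 4 of the 43 member windows (in CDH4, CDH23, PCDH1 and PCDH15), beside 17.5% of all windows. The PCDH15 match lay before its other start, outside the printed window, and CDH1 had no window to search. The letters TGANTCA of an AP-1 site were in 3 windows (of CDH2, CDH12 and CDH18), beside 6.57% of all windows. The MYC E-box CACGTG was in 1, of CTNND2, beside 6.34% of all windows. No motif contains another, and a match says only that these letters are present.

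Type I classical cadherins were represented almost wholly by CDH2. CDH2, N-cadherin, the cadherin of neural tissue and of many mesenchymal cells, had 301.4 and 300.6 CPM in sh-IRF2BP2 libraries, against 238 and 230.0 CPM in sh-Scb libraries. Both sh-IRF2BP2 libraries lay above both sh-Scb libraries, and the difference of 1.29-fold passed the test (log2 fold change 0.36, SE 0.04, edgeR adjusted p = 2.24e-05). CDH2 occupies positions 27950966 to 28177446 of chromosome 18 (GRCh38, minus strand). CDH4, R-cadherin of retina and brain, was at 2.84 and 2.59 CPM in sh-IRF2BP2 libraries, against 1.64 and 2.34 CPM in sh-Scb libraries, and was not called (edgeR adjusted p = 0.217). CDH3, P-cadherin of placenta and basal epithelium, had 1.16 and 0.749 CPM in sh-IRF2BP2 libraries, against 0.748 and 1.17 CPM in sh-Scb libraries, with overlapping groups. CDH1, the E-cadherin gene next to CDH3 on chromosome 16, had 3 and 0 counts in sh-IRF2BP2 libraries and 0 and 0 counts in sh-Scb libraries, and CDH15, M-cadherin of muscle, had at most 7 counts in a library. Neither passed the filter, so an E-cadherin transcript was not detectable at this depth beyond 3 counts in all.

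Type II cadherins were led by CDH24, and the members that moved were lower. CDH24, which binds catenins and is known from several adult tissues, had 217 and 215 CPM in sh-IRF2BP2 libraries, against 207 and 211 CPM in sh-Scb libraries, and was not called (log2 fold change 0.05, SE 0.04, edgeR adjusted p = 0.342). CDH11, OB-cadherin, known from mesenchymal cells, osteoblasts and migrating neural crest, had 32.0 and 32.0 CPM in sh-IRF2BP2 libraries, against 59.6 and 62.1 CPM in sh-Scb libraries. It was 1.90-fold lower, with no overlap between groups (log2 fold change -0.93, SE 0.07, edgeR adjusted p = 7.06e-07). In bulk RNA, fewer cells of a kind and less RNA per cell cannot be told apart. Of 9 fibroblast and mesenchymal markers, 7 were tested. DCN, LUM, PDGFRA, PDGFRB and THY1 were lower and COL1A1 and COL3A1 higher. COL1A2, which did not pass the filter, had 0 and 0 counts in sh-IRF2BP2 libraries, against 8 and 10 counts in sh-Scb libraries. FAP was at 0, and the part of this list in the CDH11 result was not tested.

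CDH18, a cadherin of the central nervous system, had 3.25 and 3.43 CPM in sh-IRF2BP2 libraries, against 4.84 and 6.70 CPM in sh-Scb libraries. It fell by 0.79 on the log2 scale (SE 0.22, edgeR adjusted p = 0.0124), but the edgeR adjusted p was 0.0689 without sh-IRF2BP2 replicate 1 and 0.111 without sh-Scb replicate 2. CDH7, known from neural crest in chick embryos, was at 2.53 and 2.40 CPM in sh-IRF2BP2 libraries, against 2.07 and 1.79 CPM in sh-Scb libraries, and was not called (edgeR adjusted p = 0.316). CDH22 had 0 and 0.312 CPM in sh-IRF2BP2 libraries, against 0.432 and 0.846 CPM in sh-Scb libraries (edgeR adjusted p = 0.141). Without sh-IRF2BP2 replicate 2, which leaves the library at 0 for that group, the edgeR adjusted p was 0.00539.

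The other 8 type II genes did not pass the filter. CDH9, CDH12 and CDH19 had no count in any library; CDH19 is known as a marker of Schwann cell precursors. CDH5, the VE-cadherin of endothelium, had 0 and 2 counts in sh-IRF2BP2 libraries, against 8 and 20 counts in sh-Scb libraries, and CDH20 had 5 and 3 counts in sh-IRF2BP2 libraries, against 18 and 9 counts in sh-Scb libraries. CDH6, CDH8 and CDH10 had at most 9 counts in a library. These 8 genes were listed without a test.

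Among the cadherins with other anchors or long extracellular parts, PCDH15 was lower. CDH13, T-cadherin, is held in the membrane by a lipid anchor and has no tail for catenins. It had 6 and 5 counts in sh-IRF2BP2 libraries, against 0 and 0 counts in sh-Scb libraries. It did not pass the filter, so no fold or test is given. CDH23 and PCDH15 form the tip links of inner ear hair cells. PCDH15 had 0.250 and 0.718 CPM in sh-IRF2BP2 libraries, against 1.44 and 1.14 CPM in sh-Scb libraries (log2 fold change -1.41, SE 0.48, edgeR adjusted p = 0.0362). That call was lost without sh-IRF2BP2 replicate 1 (edgeR adjusted p = 0.202), without sh-Scb replicate 1 (0.151), without sh-Scb replicate 2 (0.0530) and with no filter on low counts (0.0760), and by DESeq2 (adjusted p = 0.121). CDH23 had 0.531 and 0.593 CPM in sh-IRF2BP2 libraries, against 0.547 and 1.04 CPM in sh-Scb libraries, and the groups overlapped.

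All 9 non-clustered protocadherins were tested, of which 3 were higher, 1 lower and 5 not called, a share called near the 42.0% over all genes tested. PCDH9 had the smallest adjusted p among them. PCDH9, a protocadherin of developing brain, had 34.4 and 31.7 CPM in sh-IRF2BP2 libraries, against 12.3 and 12.4 CPM in sh-Scb libraries. It was 2.68-fold higher (log2 fold change 1.42, SE 0.09, edgeR adjusted p = 2.61e-07) and was called in all 12 alternative settings. PCDH9 occupies positions 66302834 to 67230445 of chromosome 13 (minus strand). PCDH8, PCDH17 and PCDH20 lie on the same chromosome between 52842889 and 61415522.

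PCDH7, known from brain and heart, had 2.28 and 2.37 CPM in sh-IRF2BP2 libraries, against 0.547 and 1.30 CPM in sh-Scb libraries. It rose by 1.34 on the log2 scale (SE 0.39, edgeR adjusted p = 0.0166). The sh-Scb libraries differed by more than 2-fold here, and the call was lost without sh-IRF2BP2 replicate 1 (edgeR adjusted p = 0.0657), sh-IRF2BP2 replicate 2 (0.0759) or sh-Scb replicate 1 (0.0802, log2 fold change 0.84). PCDH10, a protocadherin of axon tracts, had 0.781 and 0.874 CPM in sh-IRF2BP2 libraries, against 0.144 and 0.423 CPM in sh-Scb libraries (log2 fold change 1.56, SE 0.56, edgeR adjusted p = 0.0423). Its call was lost without sh-IRF2BP2 replicate 1 (edgeR adjusted p = 0.0919), sh-IRF2BP2 replicate 2 (0.133) or sh-Scb replicate 1 (0.238), with no filter on low counts (0.0749), and by DESeq2 (adjusted p = 0.169).

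PCDH20 was lower, but its count depends on how reads were divided between overlapping gene models. The identifier named PCDH20 is ENSG00000280165, on chromosome 13 from 61409685 to 61415522. It had 0 and 0 counts in sh-IRF2BP2 libraries, against 29 and 76 counts in sh-Scb libraries. It was called lower (edgeR adjusted p = 0.00187), which describes this identifier alone and not the locus. A second identifier, ENSG00000197991, shares 4577 exon bases with it on the same strand and had 6 and 13 counts in sh-IRF2BP2 libraries, against 0 and 0 counts in sh-Scb libraries. The sum of both was 0.188 and 0.406 CPM in sh-IRF2BP2 libraries, against 0.835 and 2.47 CPM in sh-Scb libraries. On that sum, an alternative chosen after seeing the data, the log2 fold change was -2.45 (SE 0.62, edgeR adjusted p = 0.0118), with both sh-IRF2BP2 libraries below both sh-Scb libraries.

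PCDH18 and PCDH1, the highest non-clustered protocadherins in CPM per kb of exon in the mean of either group, did not pass the test. PCDH18 had 32.7 and 32.4 CPM in sh-IRF2BP2 libraries, against 35.8 and 34.4 CPM in sh-Scb libraries (log2 fold change -0.11, SE 0.07, edgeR adjusted p = 0.264). PCDH1, known from epithelia and neurons, had 27.9 and 28.6 CPM in sh-IRF2BP2 libraries, against 27.6 and 30.03 CPM in sh-Scb libraries, and the groups overlapped. PCDH17 had 1.81 and 2.09 CPM in sh-IRF2BP2 libraries, against 1.55 and 0.813 CPM in sh-Scb libraries (edgeR adjusted p = 0.134, and 0.0269 without sh-Scb replicate 1). PCDH8 had 0.375 and 0.219 CPM in sh-IRF2BP2 libraries, against 0.864 and 0.553 CPM in sh-Scb libraries (edgeR adjusted p = 0.0818). PCDH19, whose loss causes an epilepsy syndrome, had 0.250 and 0.812 CPM in sh-IRF2BP2 libraries, against 0.921 and 0.846 CPM in sh-Scb libraries (edgeR adjusted p = 0.300, and 0.0457 without sh-IRF2BP2 replicate 2).

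FAT genes held the largest rises among the tested members. FAT1, a giant cadherin known for roles in cell polarity, migration and growth control, had 6.60 and 5.09 CPM in sh-IRF2BP2 libraries, against 0.720 and 0.521 CPM in sh-Scb libraries. Both sh-IRF2BP2 libraries stood far above both sh-Scb libraries, 9.32-fold on the fitted scale (log2 fold change 3.22, SE 0.28, edgeR adjusted p = 3.86e-06), in 211 and 163 counts against 25 and 16 counts. FAT1 occupies positions 186587783 to 186726722 of chromosome 4 (minus strand). FAT4, the member that pairs with Dachsous, had 18.3 and 20.9 CPM in sh-IRF2BP2 libraries, against 5.24 and 5.21 CPM in sh-Scb libraries. It was 3.75-fold higher (log2 fold change 1.91, SE 0.13, edgeR adjusted p = 5.05e-07). FAT1 and FAT4 kept their calls in every alternative setting in which they were tested.

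FAT3, known from neurons of retina and brain, had 23.1 and 21.1 CPM in sh-IRF2BP2 libraries, against 18.1 and 16.4 CPM in sh-Scb libraries. Its rise was small (log2 fold change 0.35, SE 0.10, edgeR adjusted p = 0.0128) and did not pass without sh-IRF2BP2 replicate 1 (edgeR adjusted p = 0.129) or sh-Scb replicate 2 (0.0697). FAT2 had 2.25 and 0.656 CPM in sh-IRF2BP2 libraries, against 1.53 and 1.01 CPM in sh-Scb libraries, with overlapping groups. An antisense gene shares 596 exon bases with FAT2 and had 93 counts in all beside 177 for FAT2. DCHS1, the Dachsous gene and partner of FAT4, had 239.5 and 240.4 CPM in sh-IRF2BP2 libraries, against 240.4 and 234.6 CPM in sh-Scb libraries, and was not called (log2 fold change 0.01, SE 0.04, edgeR adjusted p = 0.796).

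**Figure D2:**
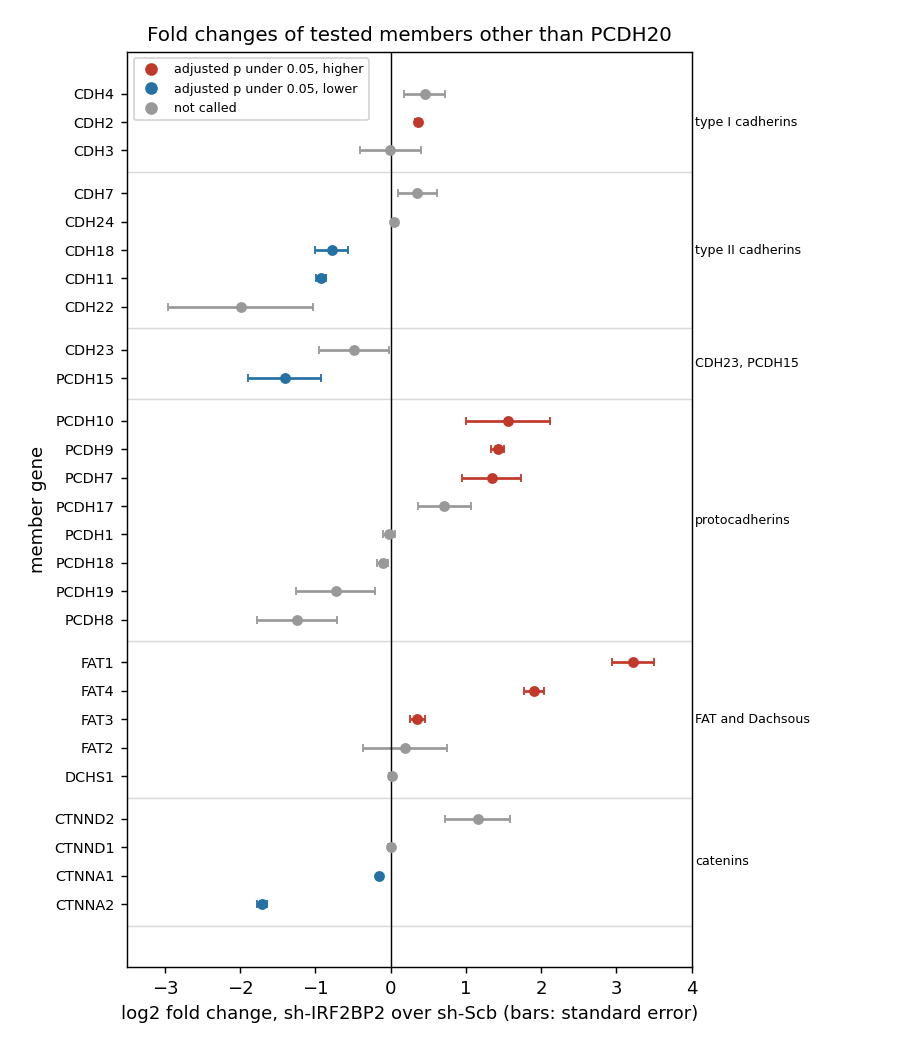
Log2 fold change, sh-IRF2BP2 over sh-Scb, of the tested members other than PCDH20, grouped by role, with bars of 1 standard error; red and blue mark an adjusted p under 0.05 and grey the rest. FAT1 (3.22) and FAT4 (1.91) lie farthest to the right, and CTNNA2 (-1.71) is the lowest of the called genes drawn.

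Among the catenins, the neuronal alpha-catenin fell and the broadly expressed ones differed little. CTNNA2, alpha-N-catenin of neurons, had 25.2 and 25.2 CPM in sh-IRF2BP2 libraries, against 85.1 and 79.7 CPM in sh-Scb libraries. It was 3.27-fold lower, with no overlap (log2 fold change -1.71, SE 0.06, edgeR adjusted p = 5.51e-09), and was called in all 12 alternative settings. CTNNA2 occupies positions 79185231 to 80648861 of chromosome 2 (plus strand). CTNNA1, alpha-E-catenin, had 276 and 275 CPM in sh-IRF2BP2 libraries, against 308 and 304 CPM in sh-Scb libraries. Its difference of 1.11-fold passed the test (log2 fold change -0.15, SE 0.04, edgeR adjusted p = 0.00798) but not without sh-IRF2BP2 replicate 1 (edgeR adjusted p = 0.0600) or replicate 2 (0.0697).

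CTNND1, p120-catenin, which holds cadherins at the cell surface, had 262 and 269 CPM in sh-IRF2BP2 libraries, against 269 and 259.7 CPM in sh-Scb libraries, and the groups overlapped (edgeR adjusted p = 0.897). CTNND2, delta-catenin of neurons, had 1.28 and 1.28 CPM in sh-IRF2BP2 libraries, against 0.777 and 0.358 CPM in sh-Scb libraries (log2 fold change 1.15, SE 0.43, edgeR adjusted p = 0.0509). That p lay at the threshold, at 0.0495 with RLE scaling and 0.0157 without sh-Scb replicate 1, as edgeR adjusted p.

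Levels of different genes were compared as CPM per kb of exon, which describes each library and carries no test, since 2 libraries against 2 allow no exact permutation p below 0.333. On this scale CDH2 was at 60.8 in the mean of the sh-IRF2BP2 libraries and 47.3 in the mean of the sh-Scb libraries, and CDH24 at 57.6 with sh-IRF2BP2 and 55.7 with sh-Scb. Every other classical cadherin was under 5 CPM per kb in both means. CDH2 made up 49.7% of summed classical cadherin levels in each sh-IRF2BP2 library, against 44.0% and 42.3% in sh-Scb libraries. Within the type II genes CDH11 made up 3.92% and 3.93% in sh-IRF2BP2 libraries, against 7.31% and 7.40% in sh-Scb libraries.

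The catenin pools differed in makeup as well as in sum. The alpha-catenins summed to 34.6 and 34.5 CPM per kb in sh-IRF2BP2 libraries, against 46.2 and 44.97 CPM per kb in sh-Scb libraries, and CTNNA2 made up 9.67% and 9.70% of that sum with sh-IRF2BP2, against 24.5% and 23.5% with sh-Scb. The p120 family (CTNND1, CTNND2 and ARVCF) summed to 40.5 and 41.3 CPM per kb in sh-IRF2BP2 libraries, against 59.3 and 60.1 CPM per kb in sh-Scb libraries. The FAT genes together were at 2.87 and 2.73 CPM per kb in sh-IRF2BP2 libraries, against 1.41 and 1.27 CPM per kb in sh-Scb libraries. FAT3 was the leading FAT gene in both sh-Scb libraries, at 66.8% and 67.0% of the sum, and made up 41.7% and 40.1% in sh-IRF2BP2 libraries, where FAT4 made up 38.7% and 46.7%.

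**Figure D3:**
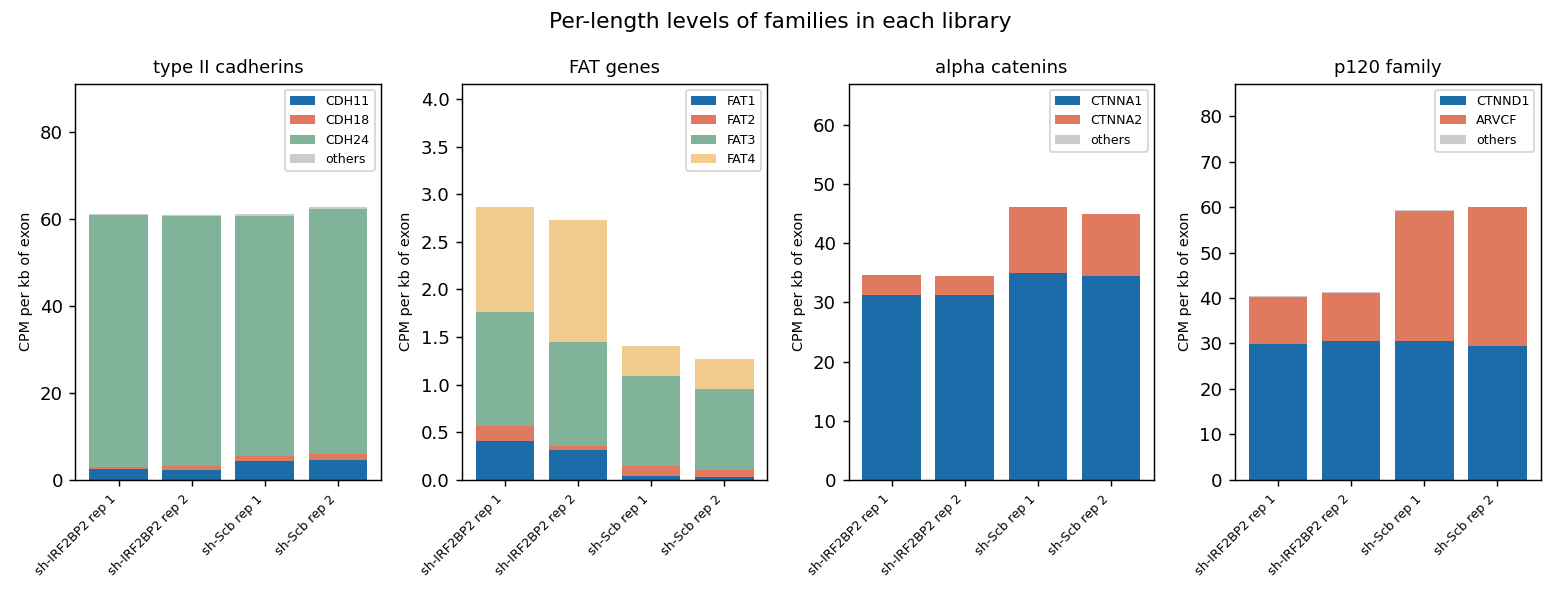
Stacked levels in CPM per kb of exon for 4 families in each library, with sh-IRF2BP2 libraries to the left. CDH24 fills most of the type II sum in every library, the FAT sum is higher with sh-IRF2BP2, and the CTNNA2 and ARVCF parts are smaller with sh-IRF2BP2.

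Called genes among other parts of the adherens junction lay in both directions. Of 40 listed partners, 38 were tested, of which 14 were higher, 13 lower and 11 not called (27 called, beside 42.0% of all genes tested), and the median log2 fold change was 0.04. Called and at least 2-fold apart were 3 higher and 6 lower, beside 9.70% of all genes tested in either direction. PLEKHA7 (log2 fold change -1.87), SHROOM2 (-1.61) and FLRT2 (-1.50), named after their values were seen, complete the 6 lower with JUP, ARVCF and CAMSAP3. Beta-catenin, CTNNB1, had 304 and 307 CPM in sh-IRF2BP2 libraries, against 324 and 325 CPM in sh-Scb libraries, and was not called (log2 fold change -0.09, SE 0.04, edgeR adjusted p = 0.0915). Plakoglobin, JUP, which can take the place of beta-catenin, had 31.8 and 38.1 CPM in sh-IRF2BP2 libraries, against 84.8 and 86.6 CPM in sh-Scb libraries (log2 fold change -1.29, SE 0.08, edgeR adjusted p = 8.99e-07). ARVCF, a relative of p120-catenin, had 58.8 and 59.4 CPM in sh-IRF2BP2 libraries, against 161 and 172 CPM in sh-Scb libraries (log2 fold change -1.49, SE 0.04, edgeR adjusted p = 1.00e-09).

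NECTIN1, an immunoglobulin-type adhesion molecule of the junction, had 168 and 169.8 CPM in sh-IRF2BP2 libraries, against 66.5 and 70.2 CPM in sh-Scb libraries (log2 fold change 1.31, SE 0.04, edgeR adjusted p = 1.57e-09). ZYX, zyxin of actin-anchoring sites under tension, had 149.9 and 162 CPM in sh-IRF2BP2 libraries, against 46.1 and 44.8 CPM in sh-Scb libraries (log2 fold change 1.78, SE 0.05, edgeR adjusted p = 6.08e-10). Both genes stood above their sh-Scb values in each sh-IRF2BP2 library. CDC42EP1, an effector of CDC42, had 8.03 and 7.02 CPM in sh-IRF2BP2 libraries, against 2.16 and 1.46 CPM in sh-Scb libraries (log2 fold change 2.05, SE 0.23, edgeR adjusted p = 2.75e-05). CAMSAP3, which ties microtubule minus ends to epithelial junctions, had 0.344 and 0.281 CPM in sh-IRF2BP2 libraries, against 2.62 and 3.12 CPM in sh-Scb libraries (log2 fold change -3.18, SE 0.35, edgeR adjusted p = 2.42e-05), and passed the filter on low counts through the sh-Scb libraries. The groups did not overlap in the 6 called genes named here, but these were picked by small p, so this adds no separate support.

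Other genes of the cadherin superfamily were set beside the members, in a list that also holds FJX1, named here because it is not itself a cadherin. Of 26 listed, 16 were tested, of which 2 were higher (FJX1 among them), 7 lower and 7 not called, and their median was -0.45 on the log2 scale. Over all genes tested 20.6% were higher and 21.4% lower. With upper quartile scaling 0 were higher and 7 lower. Neither higher call was kept without sh-IRF2BP2 replicate 1 or without replicate 2. Shares over all genes in these settings are not given here. CDHR1, a cadherin of photoreceptors, had 1.56 and 1.97 CPM in sh-IRF2BP2 libraries, against 5.96 and 5.63 CPM in sh-Scb libraries (log2 fold change -1.71, SE 0.22, edgeR adjusted p = 8.94e-05). CLSTN3, a synaptic calsyntenin, had 15.3 and 12.6 CPM in sh-IRF2BP2 libraries, against 35.0 and 35.1 CPM in sh-Scb libraries (log2 fold change -1.33, SE 0.10, edgeR adjusted p = 1.23e-06). PCDHGC4, a clustered gamma protocadherin, had 11.03 and 13.9 CPM in sh-IRF2BP2 libraries, against 25.1 and 29.2 CPM in sh-Scb libraries (log2 fold change -1.12, SE 0.12, edgeR adjusted p = 4.23e-05). It shares 2181 exon bases with the other genes of its cluster, so its count is uncertain. Of the 7 desmosomal cadherin genes listed, DSG2 had at most 2 counts in a library and the others had none.

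Transcription factors known to act on cadherin genes were a further list, with the splicing factors ESRP1 and ESRP2 added. Of 18 regulators listed, 11 were tested, of which 3 were higher, 3 lower and 5 not called; 6 of 11 called is not far from the 42.0% over all genes tested. SNAI2 (Slug), a repressor of E-cadherin known from migrating neural crest, had 37.2 and 32.9 CPM in sh-IRF2BP2 libraries, against 10.05 and 9.11 CPM in sh-Scb libraries (log2 fold change 1.87, SE 0.10, edgeR adjusted p = 7.85e-08). ZEB2 had 55.7 and 54.6 CPM in sh-IRF2BP2 libraries, against 28.3 and 28.3 CPM in sh-Scb libraries (log2 fold change 0.96, SE 0.07, edgeR adjusted p = 6.94e-07). SNAI1 had 21.7 and 18.2 CPM in sh-IRF2BP2 libraries, against 14.4 and 13.5 CPM in sh-Scb libraries (log2 fold change 0.52, edgeR adjusted p = 0.00338, and 0.0601 without sh-IRF2BP2 replicate 1). These 3 repressors were higher, but CDH1 had 0 and 0 counts in sh-Scb libraries, so no fall of CDH1 could have been seen.

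TWIST1, a neural crest and mesenchymal factor, had 163 and 173 CPM in sh-IRF2BP2 libraries, against 271 and 295 CPM in sh-Scb libraries (log2 fold change -0.75, SE 0.05, edgeR adjusted p = 5.81e-07). ZEB1 had 96.1 and 99.7 CPM in sh-IRF2BP2 libraries, against 102 and 102 CPM in sh-Scb libraries, and was not called (edgeR adjusted p = 0.283). GSC, a homeobox gene, had 2.78 and 2.81 CPM in sh-IRF2BP2 libraries, against 5.18 and 6.08 CPM in sh-Scb libraries (log2 fold change -1.01, SE 0.20, edgeR adjusted p = 0.00197). TCF4, named after its values were seen, completes the lower regulators. It had 259 and 269 CPM in sh-IRF2BP2 libraries, against 399 and 407 CPM in sh-Scb libraries. Its log2 fold change was -0.61 (SE 0.04, edgeR adjusted p = 3.67e-07). Antisense genes share 141 exon bases with TWIST1 and 366 with ZEB1, with summed counts of 1601 beside 29262 for TWIST1 and 1388 beside 12943 for ZEB1, and the library kit does not mark strand.

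**Figure D4:**
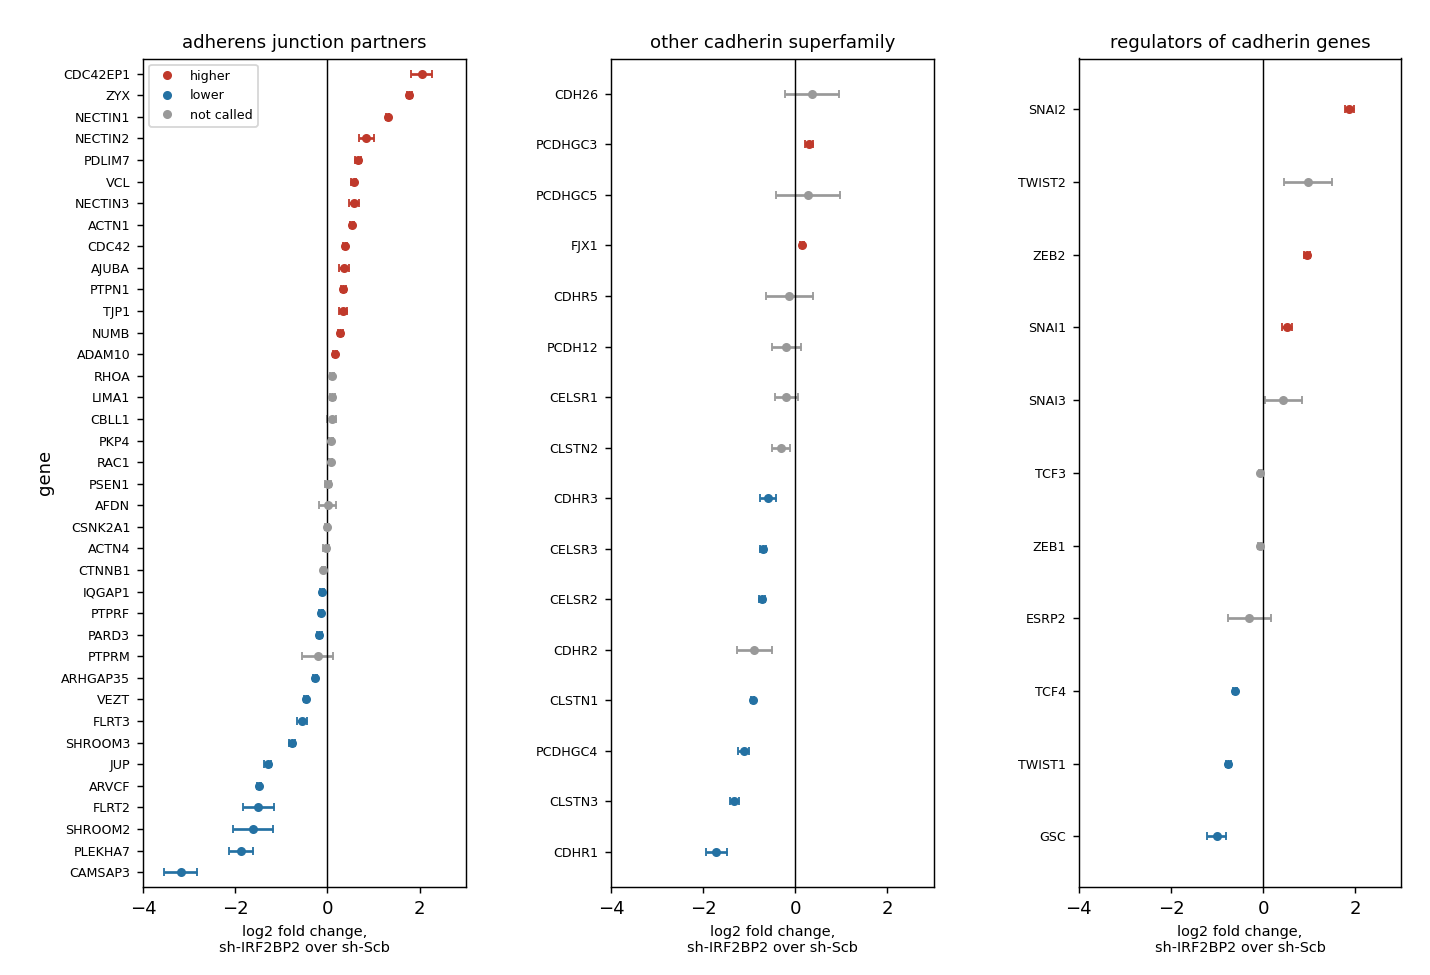
Log2 fold change, sh-IRF2BP2 over sh-Scb, with bars of 1 standard error, of the tested genes of 3 lists: adherens junction partners, other cadherin superfamily genes and regulators of cadherin genes. Partners and regulators spread to both sides of 0, and called superfamily genes lie mostly to the left. FJX1, drawn with the superfamily genes, is not a cadherin.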

How the data were processed

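Total RNA of 4 libraries was sequenced with the Illumina TruSeq RNA kit, per the labels' protocols. That kit does not mark strand, so where genes overlap in opposite directions a count can hold reads of either. The deposited file holds raw counts per gene, 1 column per library. HISAT2 2.2.0 and build hg38 are named in the submitters' processing notes; no counter or annotation is stated in the sources used here. Columns marked NC, an abbreviation the labels do not spell out, were taken as sh-Scb. Symbols came from a table of gene names, and positions, exon lengths and overlaps from GENCODE release 29 (GRCh38). The test was that of edgeR 4.0.16 (R 4.3.3; filterByExpr, TMM, robust quasi-likelihood F-test, two-sided, Benjamini-Hochberg over 19093 genes, threshold 0.05). Standard errors come from dividing the size of the log2 fold change by root F. CPM per kb divides CPM by the union of exons. The chi-square of counts per degree of freedom was 5.26 within sh-IRF2BP2 and 7.01 within sh-Scb, so no library copied another. As the labels name no separate cultures, p-values reflect library-to-library spread alone, possibly technical. The procedure was also run on simulated counts in which far fewer genes changed than were called here. That run does not check calling at this share of changed genes. RLE and upper quartile scaling, DESeq2 1.42.0, limma 3.58.1 voom, other filters, the replicate block, each library left out and a merged PCDH20 count were tried. The text names all members, CTNNB1, JUP, SNAI1, SNAI2, ZEB1, ZEB2 and TWIST1, and from each other list up to 6 called genes at least 2-fold apart with 1 CPM or more in a group. Members and lists were chosen with earlier results of these data known.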

Additional observations from a re-analysis of the deposited data

How the results depend on the processing

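All 13 member calls stood with upper quartile scaling, voom and the replicate block (13 called in each), and with RLE scaling (14); DESeq2 called 11. The replicate numbers are only shared numbers: deviations of same-numbered libraries correlated at 0.06, and the block changed no member's call. With a mean of at least 10 CPM, which left 12 members tested, 7 were called, and fewer than 13 were called with any 1 library left out. Shares called over all genes in these settings are not given here, so these counts are no result about the members. With 1 library left out, the lone library of its group is assumed to vary like the other group. Calls of CDH18, PCDH7, PCDH10, PCDH15, FAT3 and CTNNA1 were each lost for some choice of the library left out. Having fewer libraries and the values of that library were not told apart in such a loss. CTNNA1 stayed between -0.20 and -0.13 in log2 fold change over all alternatives. PCDH10 and PCDH15 also lost their calls by DESeq2 and with no filter. Calls of CDH2, CDH11, PCDH9, PCDH20, FAT1, FAT4 and CTNNA2 held wherever tested, but the size of the PCDH20 value depends on how reads were divided. The members' median log2 fold change, close to 0, was -0.037 with upper quartile scaling, -0.028 with at least 10 CPM and 0.047 with no filter, and between 0.0033 and 0.039 with 1 library left out. Some members that were not called changed sign, all near 0 or at low counts; values are log2 fold changes. CDH3 was at 0.0046 with RLE scaling, 0.0016 by DESeq2, 0.0083 by voom and 0.011 with no filter, and between -0.35 and 0.35 with 1 library left out. DCHS1 was at -0.034 and CTNND1 at -0.041 with upper quartile scaling, and at -0.025 and -0.032 with at least 10 CPM. FAT2 was at -0.043 by voom. With 1 library left out, FAT2 lay between -0.95 and 0.82, CDH23 between -0.88 and 0.041, PCDH1 between -0.082 and 0.035, DCHS1 between -0.00076 and 0.039, and CTNND1 between -0.014 and 0.039. The cause was not tested. Counts behind the low members were small: PCDH8, more than 2-fold lower by its fitted value but not called, had 12 and 7 counts with sh-IRF2BP2 and 30 and 17 counts with sh-Scb.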

Other observations

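Clustered beta protocadherins, which neurons are known to combine into cell-surface identities, were not among the members and were looked at after the other values were seen. Of 16 genes, 15 were tested, of which 7 were higher with sh-IRF2BP2, 0 lower and 8 not called by edgeR, beside 20.6% of all genes tested that were higher. Fewer were called without sh-IRF2BP2 replicate 2, and 2 when genes averaging under 10 CPM were left out, with no share over all genes beside either. Their summed level was 179 and 178 CPM in sh-IRF2BP2 libraries, against 147 and 145 CPM in sh-Scb libraries. PCDHB7 had 6.06 and 5.65 CPM in sh-IRF2BP2 libraries, against 1.32 and 2.08 CPM in sh-Scb libraries (log2 fold change 1.79, edgeR adjusted p = 0.00016). PCDHB16, the most abundant, had 65.6 and 64.2 CPM in sh-IRF2BP2 libraries, against 50.6 and 49.3 CPM in sh-Scb libraries (log2 fold change 0.38, edgeR adjusted p = 0.000258). PCDHB9 had 19.2 and 18.5 CPM in sh-IRF2BP2 libraries, against 19.1 and 17.7 CPM in sh-Scb libraries, and was not called. These genes have closely related sequences, so reads may have been divided between them in ways the counts do not show.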
